A study of Sus scrofa with 19 samples.

Results

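The kinases, phosphatases and core subunits of the pyruvate dehydrogenase complex and the mitochondrial pyruvate carrier were followed through 19 RNA-seq libraries of pig hearts, all labelled as left ventricle. The 10 members were taken by symbol (PDK1, PDK2, PDK3, PDK4, PDP1, PDP2, PDHA1, PDHB, MPC1 and MPC2), and each matched 1 of the 25879 genes counted. All 10 passed the filter on low counts, as did 13552 genes in total. PDK4 was the member that differed most. It was at 1901 to 3547 CPM (read counts scaled to a library of common size) in the 3 Control libraries and at 34.2 to 285 CPM in the 10 libraries of anthracycline-treated animals.

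The complex turns pyruvate from glycolysis into acetyl-CoA inside mitochondria, and so sets how much glucose and lactate carbon the heart can oxidise. PDHA1 and PDHB encode the alpha and beta subunits of its first enzyme, E1. The kinases PDK1 to PDK4 phosphorylate the alpha subunit and switch the complex off, while the phosphatases PDP1 and PDP2 remove the phosphate and switch it back on. MPC1 and MPC2 form the heteromeric carrier that brings pyruvate across the inner mitochondrial membrane. In heart and skeletal muscle, PDK4 is known as the kinase that is induced by fasting, diabetes and fatty acids through PPAR, FoxO and glucocorticoid signalling, whereas PDK1 is known as a target of HIF-1. PDK2 is the kinase found in nearly all tissues.

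The animals were large white pigs described as female, with 1 library per animal. The DOX group (n = 5) received doxorubicin and the MYO group (n = 5) received Myocet, a liposome-encapsulated doxorubicin-citrate complex. Both were given as 3 cycles of 60 mg per square metre of body surface, and tissue of the anterior wall was taken after 3 months, earlier than planned, because the animals' health declined. The RemoLV group (n = 3) underwent a 90 min balloon occlusion of the left anterior descending coronary artery with reperfusion, and the remote posterior wall was sampled at 6 months. In the Hyper group (n = 3), a stent of fixed width in the descending aorta of growing animals produced an artificial isthmus stenosis, and the anterior wall was sampled at 6 months. The Control group (n = 3, anterior wall, 6 months) is called sham-operated in the labels and untreated in the study's methods. No vehicle-treated animals stopped at 3 months were among these libraries. The study describes its controls as matched in age to the treated animals, whereas the labels give Control a follow-up of 6 months and DOX and MYO one of 3 months, so drug and follow-up time as labelled cannot be told apart. The feeding state of the animals at tissue sampling was not given in the sources used here.

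Several features of the libraries bear on every value below. The count files and the authors' normalised expression table gave 8 of 19 libraries to different groups, as matching of expression profiles across 14744 genes showed. The table's Control columns held the 3 libraries whose files are labelled RemoLV, its RemoLV columns held those labelled Control, and 1 DOX and 1 MYO library were exchanged. No label or file header states which naming is right, and this was not resolved here. The file labels are used here, and the members' results under the table's names are given where they differ. The comparison of DOX and MYO together with Hyper is the one whose groups hold the same libraries under both namings. The 3 libraries labelled RemoLV were nearly without 2 of 4 ventricular markers: MYL2, the ventricular regulatory light chain, was at 18.6 to 115 CPM against 8975 to 18080 CPM in the other 16 libraries, and the ventricular factor IRX4 reached at most 0.178 CPM. The other two, MYH7 (22350 to 25990 CPM) and MYL3 (2057 to 3030 CPM), stayed abundant, and the 4 summed to 25020 to 29130 CPM in RemoLV against 44910 to 74430 CPM elsewhere. All 4 ventricular markers were lower in RemoLV than in Control, and all 4 measured atrial markers were higher. MYL4, the atrial light chain, was at 6029 to 8130 CPM in RemoLV and at most 21.9 CPM elsewhere. The atrial light chain MYL7 was also at 736.5 to 2379 CPM in DOX and MYO, against 59.1 to 111 CPM in Control and 172 to 1229 CPM in Hyper, and 2 of the 4 atrial markers were higher in each anthracycline group than in Control. The part of this shift in the member levels was not tested. Y-chromosome transcripts summed to 172 to 251 CPM in all 10 DOX and MYO libraries and to at most 0.226 CPM in the others, although the animals are described as female. The DOX and MYO libraries therefore differ from the rest in sex transcripts and in follow-up as well as in treatment.

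Total counts per library ran from 9527710 to 20370209, with a median of 14527230. The 13 proteins encoded by mitochondrial DNA took 20.7 to 28.8% of counts in Control, 18.6 to 26.2% in Hyper, 17.3 to 21.2% in RemoLV and 12.7 to 19.7% in DOX and MYO. CPM values here are therefore based on an effective library size that was scaled by TMM, which equalises the bulk of genes. Scaling by library totals alone moved the median log2 fold change of all genes to 0.45 in DOX vs. Control, 0.44 in MYO vs. Control and 0.52 in RemoLV vs. Control, so a member's value under that scaling is given where its call or direction depends on it. It also moved the share of called genes that were higher from 49.8 to 88.9% in DOX, from 48.8 to 88% in MYO and from 49.1 to 85.6% in RemoLV vs. Control, from 47.7 to 81.1% in RemoLV vs. Hyper and from 48.3 to 83.7% in DOX and MYO vs. Hyper. In bulk tissue, fewer cells of a type and less RNA per cell cannot be told apart.

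The promoters of the PDK4 and PDK2 genes are shown because these kinases gave the largest and one of the smallest differences. Each runs from 250 bases before to 50 bases after the transcript start in RefSeq on Sscrofa11.1, written 5′ to 3′ on the gene's strand with CpG dinucleotides in capitals. PDK4 lies on the minus strand (promoter at chr9:75260085-75260384) and PDK2 on the plus strand (chr12:26274312-26274611).
PDK4: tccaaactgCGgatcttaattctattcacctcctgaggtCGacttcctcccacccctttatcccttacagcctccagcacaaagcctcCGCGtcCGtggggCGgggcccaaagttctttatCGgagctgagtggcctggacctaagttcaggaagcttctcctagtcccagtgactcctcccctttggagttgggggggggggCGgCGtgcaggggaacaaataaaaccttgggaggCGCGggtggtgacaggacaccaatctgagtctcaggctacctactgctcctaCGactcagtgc
PDK2: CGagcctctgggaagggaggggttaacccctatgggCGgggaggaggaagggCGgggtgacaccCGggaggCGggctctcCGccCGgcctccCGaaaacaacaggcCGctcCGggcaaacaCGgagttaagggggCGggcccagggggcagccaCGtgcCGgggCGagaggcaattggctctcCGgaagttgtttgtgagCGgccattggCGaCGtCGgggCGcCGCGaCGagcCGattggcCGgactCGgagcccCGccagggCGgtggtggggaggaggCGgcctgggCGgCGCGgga
The PDK4 promoter held 12 CpG and 57.7% G and C, close to the medians of 16 CpG and 58.7% over 19556 pig promoters. The PDK2 promoter held 33 CpG and 72.7%, and that of PDK1 held 34 CpG and 77.3%. None of the motifs searched on both strands was found in the PDK4 window: the FoxO motif GTAAACA (in 2.65% of all promoters), the nuclear receptor half-site AGGTCA (14.1%) and its extended form AAGGTCA (3.78%, a subset of the former), the HIF core ACGTG (22.3%) and TATAAA (10.9%). The PDK2 window held ACGTG on both strands at the same place. The absence of these letters from so short a window says nothing about binding of the factors.

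PDK4 fell steeply in both anthracycline groups. In the 5 DOX libraries it was at 285, 127, 34.9, 189 and 80.3 CPM, and in the 5 MYO libraries at 121, 181, 219, 34.2 and 57.6 CPM. The Control libraries were at 2834, 1901 and 3547 CPM. Even the highest anthracycline library was below the lowest Control library, but the anthracycline libraries also spread over an 8.35-fold range among themselves. The log2 fold change was -4.27 ± 0.62 (SE) in DOX vs. Control, a 19.2-fold lower level (adjusted p = 5.51e-05, edgeR quasi-likelihood test). In MYO vs. Control it was -4.49 ± 0.63, or 22.5-fold lower (adjusted p = 3.90e-05). Both comparisons use the same 3 Control libraries. Among all genes tested, 1.17% were lower by 2 or more log2 units in DOX and 1.24% in MYO. PDK4 was the only member past that larger cut, which the study itself used.

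In the libraries labelled Hyper, PDK4 was at 2614, 1078 and 868 CPM, and in those labelled RemoLV at 400, 1045 and 1117 CPM. These levels lay between Control and the anthracycline groups, and the highest Hyper library was within the Control range. Neither group passed the test against Control: the log2 fold change was -0.86 ± 0.67 in Hyper (adjusted p = 0.509) and -1.69 ± 0.69 in RemoLV (adjusted p = 0.0509), although no RemoLV library reached the lowest Control library. The Hyper value rested on single libraries, at -1.51 (adjusted p = 0.231) without Hyper replicate 1. The RemoLV value moved to either side of the threshold. Of 15 alternatives with the file labels, 6 called it (adjusted p of 0.0131 to 0.0494), among them DESeq2, RLE scaling and the fit without Control replicate 2, and 9 did not (0.0511 to 0.169), with -1.35 without RemoLV replicate 1 and -1.13 with library totals. Both anthracycline groups together were 11.5-fold lower than Hyper (log2 fold change -3.52 ± 0.48, adjusted p = 3.29e-05, with 0.885% of genes lower by 2 log2 units or more; -2.87 without Hyper replicate 1), and the highest anthracycline library (285 CPM) lay below the lowest Hyper library (868 CPM). DOX and MYO did not differ detectably (log2 fold change 0.23 ± 0.52, adjusted p = 0.943). The fall of PDK4 in DOX, in MYO and against Hyper was called under every alternative run, whichever library was left out. With the table's names, PDK4 was again lower in DOX (-2.49 ± 0.59, adjusted p = 0.00378) and MYO (-2.90 ± 0.59, adjusted p = 0.00128) than in Control, but RemoLV was then higher than Control (1.69 ± 0.68, adjusted p = 0.0482). With library totals in place of TMM, the log2 fold changes in DOX and MYO were -3.80 and -4.05.

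**Figure D1:**
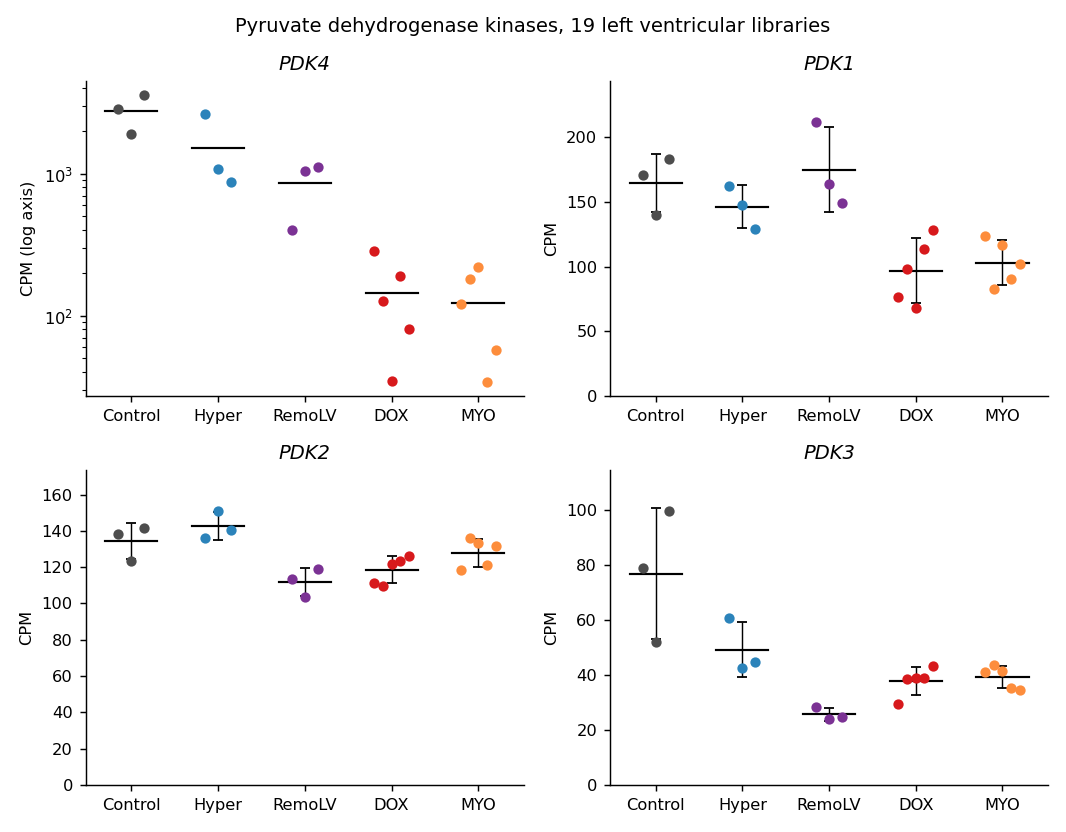
CPM of the 4 kinases in each of 19 libraries by file label; PDK4 is on a log axis and the others on linear axes from 0. Points are libraries, long bars are group means and error bars (PDK1 to PDK3) are SD; for PDK4 all 10 DOX and MYO points lie at or below 285 CPM and all Control points at or above 1901 CPM.

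PDK1 was lower after anthracyclines by a much smaller amount. The DOX libraries were at 76.4, 98.0, 68.0, 114 and 128 CPM and the MYO libraries at 124, 82.9, 116, 90.1 and 102 CPM. Control was at 171, 140 and 183 CPM, Hyper at 162, 147 and 129 CPM and RemoLV at 211, 164 and 149 CPM. The DOX and MYO values stayed below all 9 others, with the closest pair at 128 CPM (DOX 5) and 129 CPM (Hyper 3). The log2 fold change was -0.76 ± 0.18 in DOX vs. Control (adjusted p = 0.00322), -0.67 ± 0.18 in MYO vs. Control (adjusted p = 0.00723) and -0.55 ± 0.16 against Hyper (adjusted p = 0.0156). PDK1 was also lower in DOX (-0.86 ± 0.18, adjusted p = 0.00172) and MYO (-0.75 ± 0.18, adjusted p = 0.00499) under the table's names. With library totals these calls were lost, at -0.31 (adjusted p = 0.200), -0.22 (0.364) and -0.28 (0.226), and PDK1 was instead higher in RemoLV than in Control (0.61, adjusted p = 0.0249) and than in Hyper (0.60, adjusted p = 0.0374). The difference from Hyper also missed the threshold without Hyper replicate 1 (adjusted p = 0.103) or replicate 2 (0.0534).

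PDK3, a kinase of the X chromosome that is scarce in most tissues, was lower in 3 of the 4 groups than in Control. The Control libraries were at 79.2, 52.0 and 99.9 CPM, a wider spread than in any other group. DOX ranged from 29.5 to 43.3 CPM, MYO from 34.5 to 43.6 CPM and RemoLV from 24.0 to 28.3 CPM, all below the lowest Control library. The log2 fold changes were -1.02 ± 0.17 in DOX (adjusted p = 1.61e-04), -0.97 ± 0.17 in MYO (adjusted p = 2.39e-04) and -1.58 ± 0.20 in RemoLV (adjusted p = 7.21e-06). These calls stood with library totals, at -0.54, -0.50 and -1.02. Hyper, at 60.7, 42.5 and 44.8 CPM, overlapped with Control (-0.64 ± 0.19, adjusted p = 0.140). That difference passed without Control replicate 2 (-0.86, adjusted p = 0.00279) or without Hyper replicate 1 (-0.82, adjusted p = 0.0336). The direction of PDK3 depended on the naming: with the table's names, where Control holds the 3 lowest libraries, it was higher in each group: DOX at 0.54, MYO at 0.63, RemoLV at 1.58 and Hyper at 0.94, all past the threshold. In DOX and MYO vs. Hyper, with the same libraries under both namings, PDK3 was not called (-0.36 ± 0.15, adjusted p = 0.0804). It was called there with only the groups compared (-0.36, adjusted p = 0.0377), and was at -0.09 (adjusted p = 0.621) with library totals.

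PDK2 moved least of the kinases in DOX and MYO vs. Control, whereas PDK1 (0.09 ± 0.21, adjusted p = 0.754) had the smaller shift in RemoLV. Its group means were 119 ± 7.60 CPM in DOX (SD, n = 5), 128 ± 7.75 in MYO (n = 5), 112 ± 7.91 in RemoLV (n = 3), 143 ± 7.65 in Hyper (n = 3) and 134 ± 9.80 in Control (n = 3). It was lower in RemoLV than in Control (-0.26 ± 0.10, adjusted p = 0.0296) and than in Hyper (-0.35 ± 0.10, adjusted p = 0.00812), and lower in DOX and MYO than in Hyper (-0.21 ± 0.08, adjusted p = 0.0403). The difference between RemoLV and Control was lost without RemoLV replicate 1 or 2 or Control replicate 1 or 3 (adjusted p of 0.0580 to 0.121), with upper-quartile scaling (-0.14, adjusted p = 0.226), with only the groups compared (0.121) and without the DOX and MYO libraries (0.0942). That between RemoLV and Hyper was lost in the last of these (0.0512) and was -0.0006 with library totals. The difference of DOX and MYO from Hyper was lost without any 1 of the Hyper libraries, DOX replicate 2 or MYO replicate 1 or 4 (adjusted p of 0.0604 to 0.187), with upper-quartile scaling (0.0632), without a filter (0.0719) and without the RemoLV libraries (0.0511). In DOX vs. Control PDK2 was not called (-0.18, adjusted p = 0.0939), but DESeq2 (-0.20, adjusted p = 0.0390) and the fit without Control replicate 2 (-0.24, adjusted p = 0.0393) called it lower. With library totals none of these 3 was called in that direction, and PDK2 was higher in DOX (0.25, adjusted p = 0.0484) and MYO (0.36, adjusted p = 0.00737) than in Control. With the table's names PDK2 was higher in RemoLV (0.26, adjusted p = 0.0231) and Hyper (0.35, adjusted p = 0.00582) than in Control.

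The kinase transcripts were next compared with each other per kilobase of exon, using RefSeq exon lengths of 3905 bases for PDK1, 3436 for PDK2, 13793 for PDK3 and 3548 for PDK4. This make-up does not depend on the scaling of a library. PDK4 made up 89.6 ± 1.84% of kinase transcripts in Control (SD, n = 3), 81.3 ± 7.31% in Hyper (n = 3), 72.2 ± 14.2% in RemoLV (n = 3), 36.0 ± 17.5% in DOX (n = 5) and 31.4 ± 14.6% in MYO (n = 5). The RemoLV libraries ranged from 55.8 to 80.9%, and RemoLV 1 (55.8%) lay below DOX 1 (59.8%). Under the table's names these 3 libraries are the Control group. PDK2 made up 4.72% of the kinase transcripts in Control and 37.3% in the 10 anthracycline libraries, and PDK1 made up 5.02% and 26.1%. PDK3, which has the longest exons outside its coding part, stayed at 4.31% or less in each library. In Control the mean levels per kilobase were 778 CPM for PDK4, 42.1 for PDK1, 39.1 for PDK2 and 5.58 for PDK3. In the anthracycline libraries they were 37.5, 25.6, 35.9 and 2.80 CPM per kilobase, so that PDK4 and PDK2 lay within each other's spread. When coding lengths were used instead, PDK4 made up 88.1% in Control and 31.5% in the anthracycline libraries, but the share of PDK3 was larger, at 2.40% in Control and 10.2% in the anthracycline libraries, with a maximum of 14.8%.

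**Figure D2:**
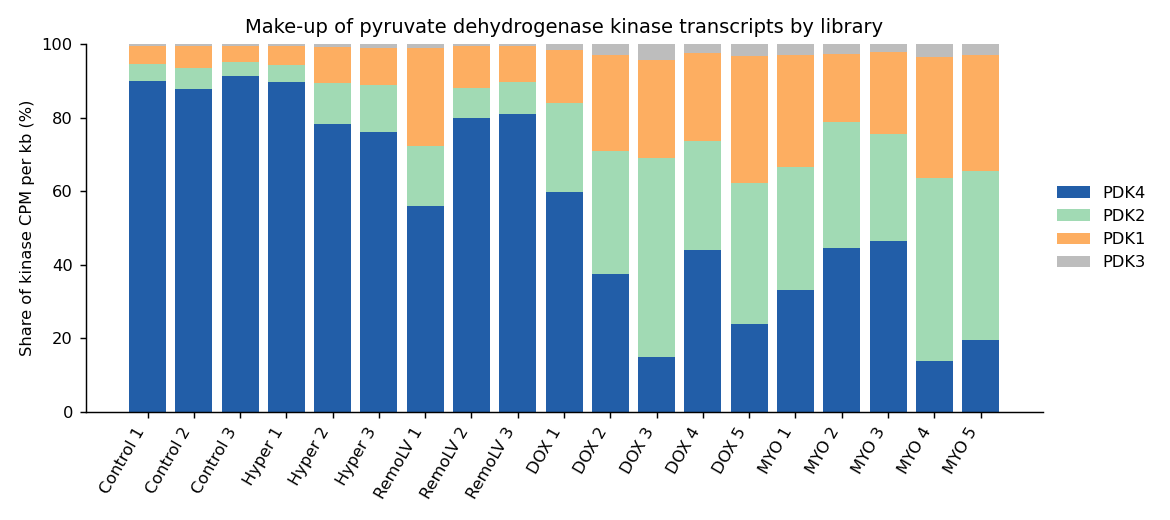
Share of each kinase in the summed kinase CPM per kilobase of exon (y axis, %), 1 bar per library by file label. PDK4 takes at least 87.7% in each Control library, 55.8 to 80.9% in RemoLV and at most 59.8% in any DOX or MYO library.

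The ratio of PDK4 to PDK2 read counts within a library gave the same order. It was 15.4 to 25.0 in Control, 6.18 to 19.2 in Hyper, 3.52 to 10.1 in RemoLV, 0.286 to 2.57 in DOX and 0.283 to 1.65 in MYO. The highest anthracycline library therefore lay below the lowest of the other 9. The ratio of PDK1 to PDK2 was highest in RemoLV, at 1.25 to 1.86, and was 1.14 to 1.29 in Control, 0.921 to 1.19 in Hyper and 0.558 to 1.04 in the anthracycline libraries. Under the table's names the Control and RemoLV ranges of both ratios are exchanged.

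With all libraries and TMM scaling, no phosphatase passed the test in any of the 7 comparisons under either naming. PDP1, the calcium-sensitive phosphatase of muscle mitochondria, had group means of 47.7 ± 5.84 CPM in DOX, 47.0 ± 6.22 in MYO, 42.2 ± 1.53 in RemoLV, 40.3 ± 9.28 in Hyper and 40.5 ± 7.56 in Control (SD; n = 5, 5, 3, 3 and 3). The ranges of DOX (40.3 to 54.0 CPM) and Control (35.7 to 49.2 CPM) overlapped, with a log2 fold change of 0.23 ± 0.15 (adjusted p = 0.220). Leaving out Hyper replicate 1 made PDP1 higher in DOX and MYO than in Hyper (0.44, adjusted p = 0.0408, from 0.23 with all libraries). With library totals PDP1 was higher in DOX (0.63, adjusted p = 0.0184), in MYO (0.62, adjusted p = 0.0213) and in both against Hyper (0.50, adjusted p = 0.0479). PDP2, the insulin-responsive phosphatase, was the scarcest member, at 6.24 to 12.7 CPM over all libraries, and its log2 fold changes lay between -0.36 and -0.02.

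The E1 subunits were slightly lower in 3 groups than in Control. PDHA1 was the most abundant member, with Control libraries at 2117, 1672 and 2437 CPM. It was at 1352 to 1591 CPM in DOX (log2 fold change -0.46 ± 0.13, adjusted p = 0.00832), 1402 to 1753 CPM in MYO (-0.42 ± 0.13, adjusted p = 0.0126) and 1144 to 1410 CPM in RemoLV (-0.72 ± 0.14, adjusted p = 5.58e-04). Only the MYO range overlapped with Control among these. PDHB showed the same order with smaller shifts, of -0.29 ± 0.10 in DOX (adjusted p = 0.0301), -0.28 ± 0.10 in MYO (adjusted p = 0.0344) and -0.50 ± 0.12 in RemoLV (adjusted p = 0.00200). Hyper, at 1439 to 1896 CPM for PDHA1 and 310 to 432 CPM for PDHB, did not pass (adjusted p = 0.239 and 0.407). DOX and MYO together did not differ detectably from Hyper in PDHA1 (-0.11 ± 0.11, adjusted p = 0.507) or PDHB (-0.10 ± 0.09, adjusted p = 0.412).

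All of these E1 differences rested on the scaling, and those in DOX and MYO also on single libraries. In RemoLV vs. Control both subunits stayed lower and called whichever library was left out. Without Control replicate 3, PDHA1 no longer passed in DOX (-0.32, adjusted p = 0.0843) or MYO (-0.29, adjusted p = 0.120), nor did PDHB (-0.22 and -0.21, adjusted p = 0.168 and 0.186). PDHB was also lost in DOX without DOX replicate 2 or 3 or Control replicate 1, and in MYO without Control replicate 1 or MYO replicate 2, 3, 4 or 5. Upper-quartile scaling removed it in DOX (-0.23, adjusted p = 0.0657) and MYO (-0.21, adjusted p = 0.0883), and a fit without a filter removed it in MYO (adjusted p = 0.0531). With a block for the replicate number, which the DOX and Control libraries may share, PDHB missed the threshold in DOX (-0.28, adjusted p = 0.0534). Without Control replicate 2, PDHA1 passed in Hyper (-0.47, adjusted p = 0.0273). With library totals no E1 call remained against Control; PDHA1 was at -0.0033 for the DOX group, 0.03 for MYO and -0.19 for RemoLV, and PDHB at 0.14, 0.16 and 0.02. With the table's names neither subunit was called in DOX or MYO, and both were higher in RemoLV and Hyper. RemoLV was also lower than Hyper in PDHA1 (-0.39 ± 0.14, adjusted p = 0.0425) and PDHB (-0.31 ± 0.12, adjusted p = 0.0432). Both calls were lost without RemoLV replicate 2 or 3 or Hyper replicate 1 or 2, and that of PDHB also without RemoLV replicate 1 (adjusted p of 0.0504 to 0.260). Upper-quartile scaling, a fit of only the groups compared and leaving out DOX and MYO removed both as well (0.0792 to 0.149), and with library totals the values were -0.04 and 0.03. The ratio of PDHA1 to PDHB counts, which needs no scaling, was 5.03 ± 0.47 in Control (SD, n = 3) and between 4.32 and 4.60 as a mean in the other groups, and the ranges overlapped (4.50 to 5.41 in Control and 4.29 to 5.44 in DOX and MYO). Under the table's names the Control and RemoLV values of this ratio are exchanged.

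The carrier subunits separated from each other. MPC2 fell to 105, 98.8, 95.0, 95.2 and 108 CPM in DOX and to 123, 93.8, 108, 89.9 and 103 CPM in MYO, from 177, 149 and 198 CPM in Control. RemoLV was at 93.3, 97.7 and 84.2 CPM, and Hyper, at 171, 162 and 142 CPM, stayed near Control. All DOX, MYO and RemoLV libraries were below all Hyper and Control libraries. Against Control the log2 fold change of the DOX group was -0.79 ± 0.11 (adjusted p = 3.51e-05) and that of the MYO group -0.75 ± 0.11 (adjusted p = 5.77e-05). For RemoLV it was -0.93 ± 0.13 (adjusted p = 1.77e-05) and for Hyper -0.14 ± 0.13 (adjusted p = 0.573). Against Hyper, DOX and MYO were lower by 0.63 ± 0.10 on the log2 scale (adjusted p = 1.02e-04). With library totals MPC2 remained called in DOX (-0.35), MYO (-0.30), RemoLV (-0.40) and against Hyper (-0.37). With the table's names, MPC2 in DOX (0.17, adjusted p = 0.258) and MYO (0.13, adjusted p = 0.410) did not pass against Control, and it was higher in RemoLV (0.93, adjusted p = 1.76e-05) and Hyper (0.79, adjusted p = 1.09e-04).

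MPC1, by contrast, was at 104 to 122 CPM in DOX, 108 to 121 CPM in MYO, 104 to 125 CPM in Hyper and 88.8 to 125 CPM in Control, and none of these groups passed against Control. The log2 fold change was 0.05 ± 0.11 in DOX (adjusted p = 0.751) and 0.07 ± 0.11 in MYO (adjusted p = 0.614). RemoLV, at 89.2, 77.7 and 69.7 CPM, was lower than Control (-0.48 ± 0.12, adjusted p = 0.00341) and than Hyper (-0.51 ± 0.12, adjusted p = 0.00321), although with only the groups compared the former just missed the threshold (-0.47, adjusted p = 0.05 after rounding). Under the table's names, where those 3 libraries are the Control group, MPC1 was higher in DOX (0.56, adjusted p = 9.25e-04), MYO (0.52, adjusted p = 0.00161), RemoLV (0.48, adjusted p = 0.00333) and Hyper (0.51, adjusted p = 0.00313). With library totals and the file labels it was also higher in DOX (0.50, adjusted p = 0.00119) and MYO (0.52, adjusted p = 7.74e-04) and in both against Hyper (0.29, adjusted p = 0.0288), while RemoLV no longer differed detectably from Control (0.05, adjusted p = 0.745) or Hyper (-0.17, adjusted p = 0.257).

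The ratio of MPC1 to MPC2 counts, free of any scaling, was 0.591 to 0.708 in Control, 0.635 to 0.878 in Hyper, 0.796 to 0.956 in RemoLV and 0.947 to 1.29 in the 10 anthracycline libraries. The anthracycline libraries did not overlap with Control or Hyper. Their lowest library (MYO 1, 0.947) lay just below the highest RemoLV library (0.956). Under the table's names the Control and RemoLV ranges are exchanged, so the anthracycline libraries then overlap with Control.

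**Figure D3:**
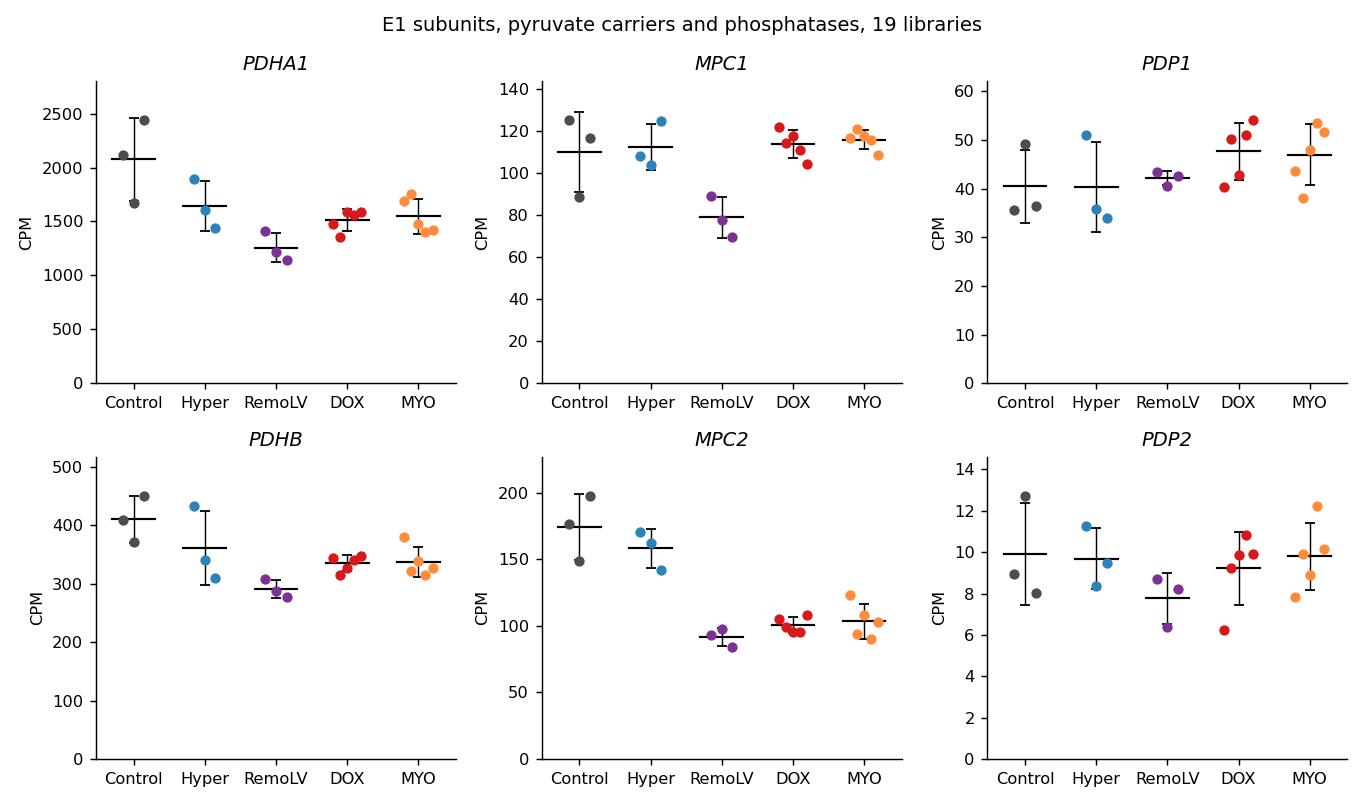
CPM of the E1 subunits, the carrier subunits and the phosphatases in each of 19 libraries by file label, on linear axes from 0. Points are libraries, long bars group means and error bars SD; MPC2 is at or below 123 CPM in all DOX, MYO and RemoLV libraries and at or above 142 CPM in Hyper and Control.

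**Figure D4:**
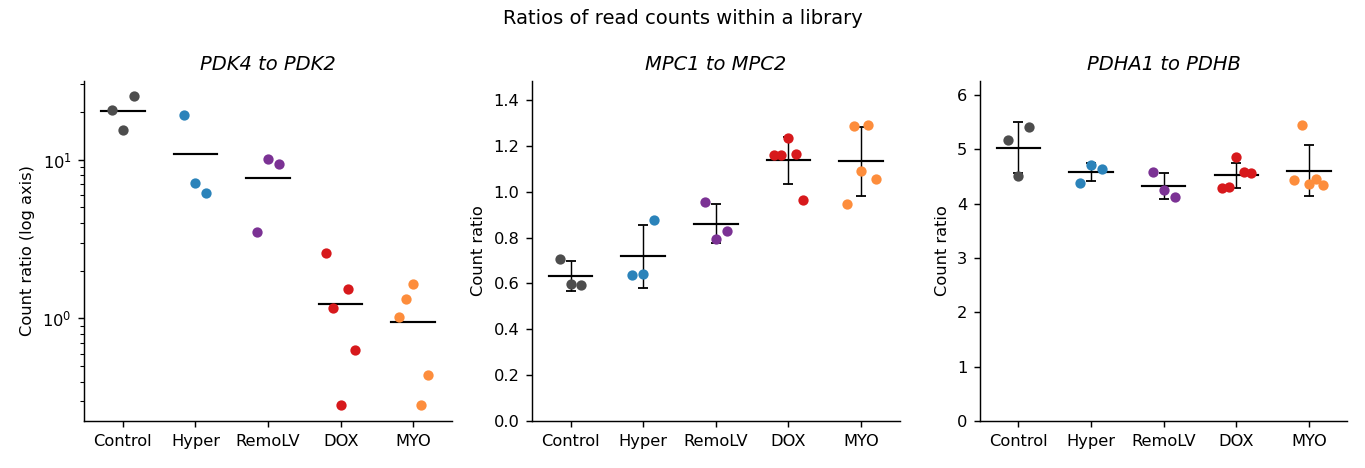
Ratios of read counts within a library (y axes; PDK4 to PDK2 on a log axis) by file label. Points are libraries, long bars are means and error bars (MPC1 to MPC2 and PDHA1 to PDHB only) are SD. PDK4 to PDK2 is at most 2.57 and MPC1 to MPC2 at least 0.947 in the DOX and MYO libraries.

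Counted over the members, 6 of 10 were lower and none higher in DOX vs. Control, where 21.1% of all genes tested were lower. The 6 were PDK1, PDK3, PDK4, PDHA1, PDHB and MPC2, and all 6 ranges lay below the Control range, beside 17.3% of all genes. The same 6 were lower in MYO vs. Control, where 21.7% of genes were lower, and 4 of them (PDK1, PDK3, PDK4 and MPC2) did not overlap with Control, beside 18.7% of genes. In RemoLV vs. Control 6 members were lower, with PDK2 and MPC1 in place of PDK1 and PDK4, beside 24% of all genes. The ranges of 6 members (PDK2, PDK3, PDK4, PDHA1, PDHB and MPC2) lay below Control there, beside 25.7% of genes; PDK4 was not called and MPC1 overlapped. In Hyper vs. Control no member was called, nor any of the 13552 genes with edgeR, although 2418 genes (17.8%) and 2 members (PDK3 and PDHA1) had an unadjusted p below 0.05 and DESeq2 called 312 genes. In DOX vs. MYO again no gene was called with edgeR, with 960 genes (7.08%) and no member at an unadjusted p below 0.05, and DESeq2 called 2. RemoLV was lower than Hyper in 6 members (PDK2, PDK3, PDHA1, PDHB, MPC1 and MPC2), beside 18.6% of genes, and DOX and MYO together were lower than Hyper in 4 (PDK1, PDK2, PDK4 and MPC2), beside 16.9%. The same 4 did not overlap with Hyper, beside 11% of genes. With library totals 3 members were higher (PDK2, PDP1 and MPC1, beside 41.5% of genes) and 3 lower (PDK3, PDK4 and MPC2, beside 5.2%) in DOX vs. Control. The same 3 and 3 were called in MYO, beside 40.6% and 5.56% of genes. Against Hyper, DOX and MYO were then higher in 2 (PDP1 and MPC1, beside 28.7%) and lower in 2 (PDK4 and MPC2, beside 5.61%). RemoLV was higher in PDK1 and lower in PDK3 and MPC2, both against Control (beside 45.6% and 7.66% of genes) and against Hyper (beside 30.4% and 7.1%). Under the table's names 2 members were higher (PDK3 and MPC1, beside 15% of genes) and 2 lower (PDK1 and PDK4, beside 14.6%) in DOX vs. Control. The same members were called in MYO, beside 14.8% and 14.4% of genes. In RemoLV 7 members were higher (beside 24%) and in Hyper 6 (beside 18.7%), while RemoLV vs. Hyper held no call (0% of genes). The median log2 fold change over the members was -0.37 in DOX, -0.35 in MYO, -0.49 for RemoLV and -0.15 for Hyper, against 0.03, 0.02, 0.02 and 0.01 over all genes.

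**Figure D5:**
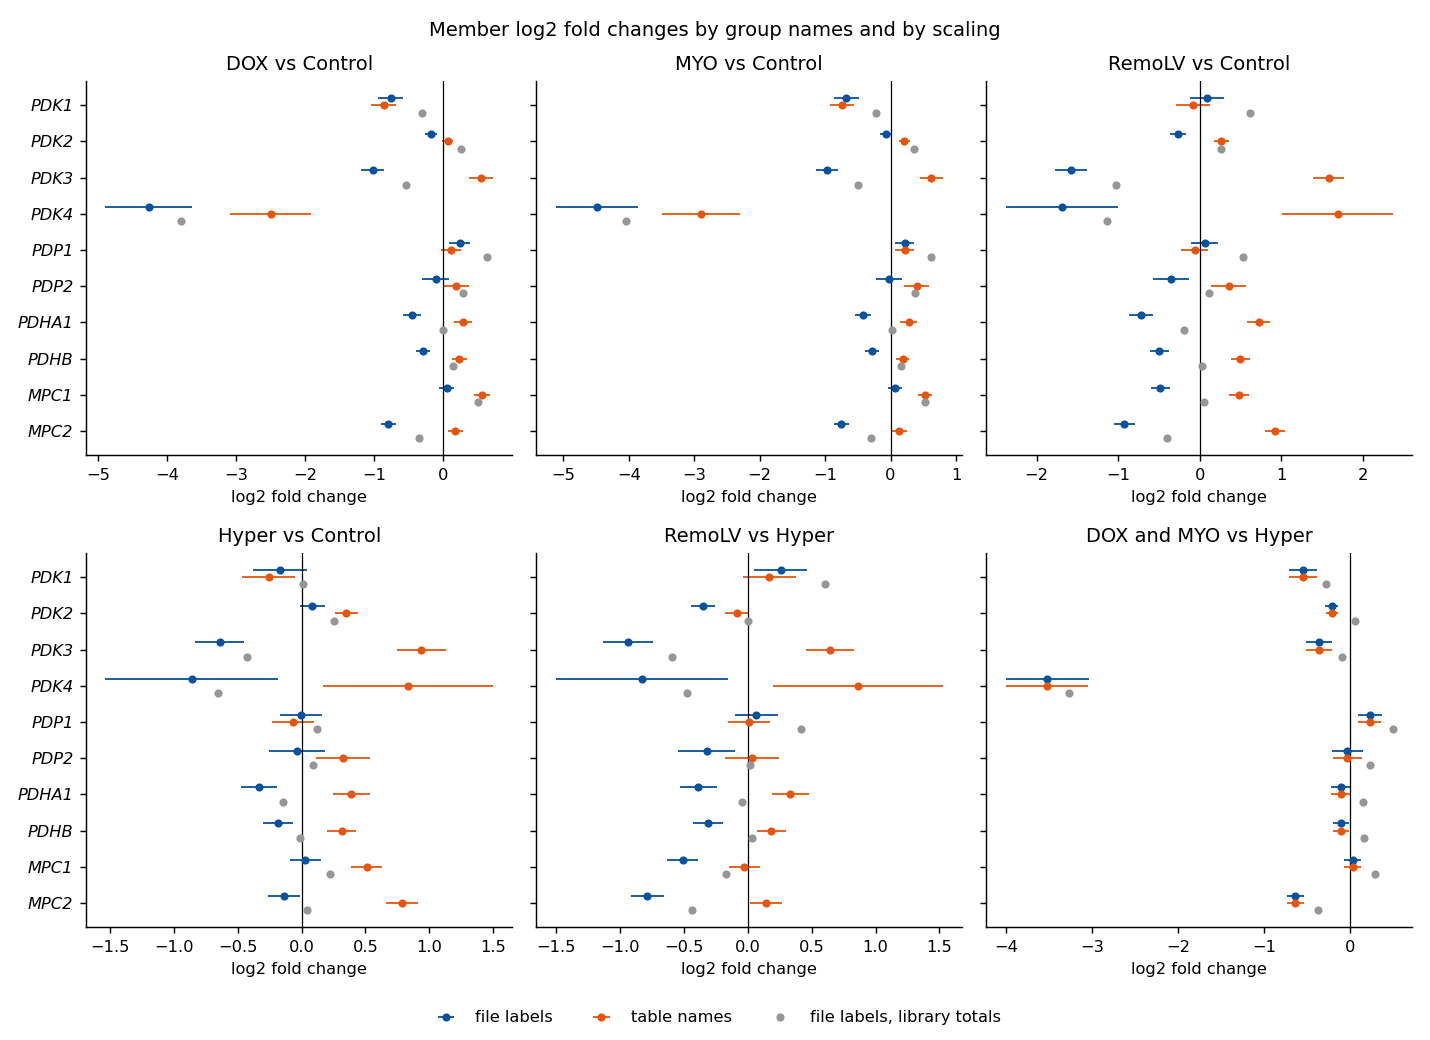
log2 fold change of the 10 members in 6 comparisons. Blue points are the file labels with TMM scaling, orange points the table's names with TMM scaling (both with bars of ± SE) and grey points the file labels with library totals; PDK4 lies left of zero in DOX, MYO and the comparison with Hyper in all 3, while PDK3, PDHA1, PDHB and MPC2 change sides with the naming against Control.

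The neighbouring genes of the pathway were read from fixed lists in the same fit. These lists were counted with TMM scaling only and not with library totals. With library totals 41.5% of all genes were higher and 5.2% lower in DOX vs. Control, so the counts below may depend on the scaling. Of all genes tested, 21% were higher and 21.1% lower in DOX vs. Control, 20.7% and 21.7% in MYO, 23.1% and 24% in RemoLV, and 15.8% and 16.9% in DOX and MYO vs. Hyper. By the table's names these shares against Control were 15% and 14.6% for DOX, 14.8% and 14.4% for MYO, 24% and 23.2% for RemoLV, and 18.7% and 17.2% for Hyper. Of 6 tested genes for the rest of the complex and its lipoylation, 4 were lower than in Control after DOX and 3 after MYO, and 5 were lower in RemoLV. None was called in Hyper, and none was higher. Under the other naming none was lower, and the number higher was 1 for DOX, 1 for MYO, 5 for RemoLV and 3 for Hyper. DLD, the E3 dehydrogenase shared with other ketoacid complexes, was at -0.66 ± 0.12 in DOX (adjusted p = 4.65e-04), and DLAT, the E2 core, at -0.48 ± 0.12 (adjusted p = 0.00334). As a reference for mitochondrial content, 13 nuclear-encoded mitochondrial genes were read the same way. In DOX 5 were lower and in MYO 7, with all 13 lower for RemoLV and no call for Hyper, with medians of -0.32, -0.34, -0.70 and -0.19. The E1 shifts in DOX and MYO (-0.46 to -0.28) were of the size of this reference median, whereas PDK4 (-4.27 and -4.49), PDK3 (-1.02 and -0.97), MPC2 (-0.79 and -0.75) and PDK1 (-0.76 and -0.67) lay further down. The reference genes themselves spread from -0.70 (TOMM20) to 0.02 (UQCRC1) in DOX and from -0.66 to 5e-04 in MYO, for the same genes. No test was made of these members against the reference. Under the table's names 9 of the 13 reference genes were higher for DOX, 8 for MYO, 13 for RemoLV and 12 for Hyper, and none was lower.

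On the lactate side, LDHA, the muscle-type lactate dehydrogenase subunit, rose in DOX (0.81 ± 0.22, adjusted p = 0.00646), and SLC16A3, the lactate exporter MCT4, rose in DOX (2.06 ± 0.60, adjusted p = 0.0112) and MYO (1.85 ± 0.60, adjusted p = 0.0195). CS, citrate synthase, which uses the acetyl-CoA that the complex makes, fell in DOX (-0.48 ± 0.11, adjusted p = 0.00215). The 15 tested Ensembl genes of pyruvate and lactate metabolism outside the members included 2 with the symbol LDHB. Of these 15, 3 were higher and 4 lower in DOX, 2 higher and 3 lower in MYO, and 6 lower for RemoLV, with no call for Hyper. Against Hyper, 3 were higher and 4 lower in DOX and MYO together. By the table's names 6 were higher and 1 lower in each of the 4 groups against Control.

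Genes that share regulators with PDK4 did not all move with it. Of 16 tested targets of PPAR, FoxO and the fasting response, 8 were lower and 3 higher in DOX vs. Control, 5 lower and 2 higher in MYO, 6 lower and 3 higher for RemoLV, with no call for Hyper. UCP3, a mitochondrial carrier induced by fatty acids, was lower in DOX (-3.67 ± 0.67, adjusted p = 3.82e-04) and MYO (-4.26 ± 0.71, adjusted p = 1.78e-04), as was the lipid droplet protein PLIN2 in DOX (-1.86 ± 0.36, adjusted p = 5.57e-04). PLIN5, a lipid droplet protein of oxidative tissue, was higher in DOX (2.85 ± 0.69, adjusted p = 0.00327) and MYO (2.94 ± 0.69, adjusted p = 0.00255). The table's names gave 3 higher and 6 lower for DOX, 4 and 3 for MYO, 6 and 3 for RemoLV, and 5 and 1 for Hyper. DOX and MYO together were lower than Hyper in 8 of the 16 and higher in 2. Among them the redox regulator TXNIP was at -1.29 ± 0.32 (adjusted p = 0.0051) and PLIN2 at -1.47 ± 0.30 (adjusted p = 0.00133).

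Among 14 transcription factors and coactivators known to act on PDK4, 5 were lower and 3 higher in DOX vs. Control, and 6 and 3 in MYO. The table's names gave 3 lower and 5 higher in DOX, and 3 and 4 in MYO. PPARA, the fatty acid receptor, was lower in DOX (-1.95 ± 0.56, adjusted p = 0.0102) and MYO (-2.77 ± 0.58, adjusted p = 0.00113), and the coactivator PPARGC1A was lower in DOX (-0.90 ± 0.22, adjusted p = 0.00359). Its relative PPARGC1B was higher in DOX (1.47 ± 0.29, adjusted p = 7.38e-04). ESRRG, the oestrogen-related receptor gamma, was lower in DOX (-0.76 ± 0.15, adjusted p = 8.27e-04) and, against Hyper, in DOX and MYO together (-0.83 ± 0.13, adjusted p = 1.53e-04). Of 10 tested HIF-1 targets, to which PDK1 also belongs by its regulation, 2 were higher and 1 lower in DOX, with VEGFA at 1.13 ± 0.24 (adjusted p = 0.00151), and 1 was higher in MYO. Under the other naming 2 were higher and none lower in each.

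The related branched-chain ketoacid dehydrogenase, which is also switched by a kinase and a phosphatase, was measured by 5 genes. Against Control, 2 of these were lower in each anthracycline group and 4 in the RemoLV libraries, with no call for Hyper. The direction turned with the table's names, where 4 were higher for DOX, 5 for MYO, 4 for RemoLV and 5 for Hyper, and none was lower. PPM1K, its phosphatase, was at -0.82 ± 0.19 in DOX (adjusted p = 0.00269) and BCKDHB, a subunit of its first enzyme, at -0.48 ± 0.13 (adjusted p = 0.00728).

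Across all 19 libraries, the genes most like PDK4 by Pearson correlation of log2(CPM + 1), among 10270 genes with a symbol and a mean of at least 2 on that scale, were RPL7 (r = 0.920), RPS4X (0.919), PABPC1 (0.917), PTPRG (0.914) and USP9X (0.913). RPL7 and RPS4X are ribosomal proteins and PABPC1 is the poly(A)-binding protein. These correlations describe 19 libraries in 5 groups, where the difference between groups is most of the spread, and all share the scaling of their library. The DOX and MYO libraries, with the lowest mean of each of these 5 genes, are also those with Y-chromosome transcripts. USP9X was at 48.1 to 65.8 CPM there and at 86.1 to 165 CPM in the others. The part of sex in these correlations was not tested. RPL7 was at 386 to 466 CPM in DOX and MYO, 514 to 540 in RemoLV, 609 to 733 in Hyper and 646 to 687 in Control, so its range was far narrower than that of PDK4. Of the other members, PDK1 (r = 0.745) and MPC2 (0.710) were the most like PDK4 and PDP1 (r = -0.516) the least.

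Markers of other cell types differed between the groups as well. Adipocyte markers (5 of 5 measured) summed to 65.5 to 124 CPM in DOX and MYO, 134 to 176 in Hyper, 139 to 152 in Control and 141 to 273 in RemoLV, which was mostly FABP4, a gene of endothelium as well (63.0 to 122 CPM in DOX and MYO and 112 to 150 in Control). The defining marker ADIPOQ overlapped, at 0.277 to 10.4 CPM in DOX and MYO, 0.0705 to 21.9 in Control, 0.335 to 22.3 in Hyper and 10.9 to 77.5 in RemoLV, as did PLIN1 and CIDEC between DOX and MYO and Control. Fibroblast markers (6 of 6) summed to 2117 to 3823 CPM in DOX and MYO, 896 to 2009 in Hyper, 1170 to 1777 in Control and 4735 to 5443 in RemoLV. In DOX and MYO, COL1A1, COL1A2 and POSTN lay above all Control libraries, whereas DCN and LUM overlapped with Control. PDGFRA overlapped too, with a lower median (9.73 CPM against 22.6 CPM in Control). Erythroid markers (3 of 4) summed to 36.5, 341 and 352 CPM in Control, 8.49 to 197 in DOX and MYO, 21.3 to 120 in Hyper and 10.1 to 41.7 in RemoLV, and all 3 were lower in DOX and in RemoLV than in Control, with median log2 fold changes of -2.38 and -3.37. Cardiomyocyte markers (5 of 8 measured) summed to 20730 to 30110 CPM in DOX and MYO, 23890 to 24890 in RemoLV, 25320 to 29250 in Hyper and 23330 to 30670 in Control, but moved both ways: 2 were higher and 3 lower in DOX vs. Control (median log2 fold change -0.49), and 1 higher and 4 lower in RemoLV (median -0.83). Ventricular cardiomyocyte markers (4 of 4) summed to 44910 to 59420 CPM in DOX and MYO and 49990 to 74430 CPM in Control. None of the 4 was called lower in DOX or MYO vs. Control, and IRX4 was higher in both, at 19.3 to 27.7 CPM against 9.26 to 13.1 CPM. The range of MYL2 nevertheless lay below Control, at 8975 to 13500 CPM in DOX and MYO against 13580 to 18080 CPM. Leukocyte markers (5 of 5) summed to 416 to 783 CPM in DOX and MYO and 436 to 626 in Control. Among them CD163 lay below Control in DOX and MYO (32.3 to 84.9 CPM against 86.8 to 136), and the others overlapped. The skeletal muscle list (TNNT3, ACTA1 and CKM measured) summed to 13520 to 18830 CPM in DOX and MYO, 18620 to 24860 in Hyper, 18460 to 26200 in Control and 4526 to 6880 in RemoLV. The part of these shifts in the member levels was not tested.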

How the data were processed

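Poly(A) RNA of 19 pig heart samples labelled as left ventricle was sequenced in paired ends from directional libraries. The authors mapped reads with STAR to Sscrofa11.1, counted them with HTSeq 0.11.1 (union mode, reverse strand) and deposited raw read counts per Ensembl gene, 1 file per library. The authors also deposited a table of log2-scale normalised expression, used only to match its columns to the count files by Spearman correlation (each best match 1.0, highest second match 0.9919). Its columns of the authors' own comparisons (fold changes and p-values) were not used.

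Groups follow the labels of the count files. Counts were fitted with edgeR 4.0.16 in R 4.3.3 (quasi-likelihood test, TMM scaling, filterByExpr leaving 13552 of 25879 genes, 1 model of 5 groups without a block). P-values were adjusted by Benjamini-Hochberg over all genes kept, and a gene was called at an adjusted p of at most 0.05. The SE of a log2 fold change is its size divided by the square root of the F statistic. CPM are read counts per effective (TMM-scaled) library size. The study also used a cut at an absolute log2 fold change of 2. With 1 library per animal, p-values measure the spread between animals. On simulated counts for DOX vs. Control, among 13552 genes, 89% of genes changed by 2 log2 units and 69% of those changed by 1 were recovered. For RemoLV vs. Control these rates were 86% and 62%. Only 100 genes were changed at each size, as many up as down, from 1 mean per gene over all groups. The rates therefore do not cover data in which many genes, or the scaling, shift between groups. Total counts were 9527710 to 20370209 per library, and the scarcest member, PDP2, had 92 to 214 reads per library.

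The members and gene lists were chosen with earlier results of these data known. All 10 members were tested in every comparison, although not every value is printed. Of each other list, up to 3 genes in each direction with the largest called changes could be named. Same-numbered libraries of DOX and Control deviated together (correlations of 0.242, 0.158 and 0.117 over 3 pairs), which no label explains; no other pair of groups did so in every pair. Sequences and exon lengths came from RefSeq. Alternatives were the table's names, DESeq2 1.42.0, RLE and upper-quartile scaling, no filter, a filter of 1 CPM in 3 libraries, a replicate block, fits of only the groups compared and leaving out each library. Leaving out RemoLV, leaving out DOX and MYO, and library totals were added after seeing the data.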

Additional observations from a re-analysis of the deposited data

How the results depend on the processing

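PDK4 was called lower in DOX and MYO vs. Control and in DOX and MYO vs. Hyper under every alternative run. MPC2 in those comparisons was called lower under each of them too, except against Control with the table's names. PDK3 in DOX and MYO vs. Control was called lower under each, except that with the table's names it was called higher. The count of members called in RemoLV vs. Control was 3 with library totals. In Hyper vs. Control it was 6 with the table's names. In RemoLV vs. Hyper it was 0 with the table's names, 3 without the DOX and MYO libraries and 3 with library totals. Leaving out each library in turn, it ran from 0 to 2 in Hyper vs. Control (1 without Hyper replicate 1, 2 without Control replicate 2), and from 2 to 4 in DOX and MYO vs. Hyper (2 without Hyper replicate 2). It ran from 4 to 7 in DOX, 4 to 6 in MYO and 5 to 7 in RemoLV against Control, and from 4 to 6 in RemoLV vs. Hyper. Over all genes, Hyper vs. Control gave 0 calls and 4856 with the table's names, 312 with DESeq2, 4 with upper-quartile scaling, 6 without a filter and 1 with only the groups compared. RemoLV vs. Hyper gave 4818 and, with the table's names, 0. DOX vs. MYO gave 0 and 2 with DESeq2. The cause was not tested. Correlations of same-numbered libraries ran from -0.246 to 0.242, with 4 of 32 above 0.1, of which 3 were the 3 pairs of DOX and Control. A correlation of similar size but negative sign (-0.246) was seen between the Control and MYO libraries numbered 2. These values therefore cannot show whether the numbers pair DOX and Control, and no label says so. With a replicate block PDHB was lost in DOX (-0.28, adjusted p = 0.0534), MYO (-0.28, 0.0569) and RemoLV vs. Hyper (-0.31, 0.0520), PDHA1 in RemoLV vs. Hyper (-0.39, 0.0642) and PDK2 in DOX and MYO vs. Hyper (-0.23, 0.0646), and it changed no other call.

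With the table's names 39 of 70 log2 fold changes of members changed sign. In DOX vs. Control PDK2 was 0.065, PDK3 0.54, PDP2 0.18, PDHA1 0.29, PDHB 0.23 and MPC2 0.17. In MYO vs. Control PDK2 was 0.21, PDK3 0.63, PDP2 0.40, PDHA1 0.28, PDHB 0.19 and MPC2 0.13. In RemoLV vs. Control PDK1 was -0.087, PDK2 0.26, PDK3 1.58, PDK4 1.69, PDP1 -0.059, PDP2 0.36, PDHA1 0.72, PDHB 0.50, MPC1 0.48 and MPC2 0.93. In Hyper vs. Control PDK3 was 0.94, PDK4 0.83, PDP2 0.32, PDHA1 0.39, PDHB 0.31 and MPC2 0.79. In DOX vs. MYO PDP1 was -0.11, PDHA1 0.0053, PDHB 0.047, MPC1 0.038 and MPC2 0.043. In RemoLV vs. Hyper PDK3 was 0.64, PDK4 0.86, PDP2 0.033, PDHA1 0.33, PDHB 0.18 and MPC2 0.14.

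With library totals 21 changed sign. They were PDK2 0.25, PDP2 0.28 and PDHB 0.14 in DOX vs. Control, and PDK2 0.36, PDP2 0.37, PDHA1 0.028 and PDHB 0.16 in MYO vs. Control. In RemoLV vs. Control they were PDK2 0.26, PDP2 0.11, PDHB 0.023 and MPC1 0.049, and in Hyper vs. Control PDK1 0.011, PDP1 0.12, PDP2 0.093 and MPC2 0.042. In RemoLV vs. Hyper they were PDP2 0.020 and PDHB 0.033, and in DOX and MYO vs. Hyper PDK2 0.053, PDP2 0.23, PDHA1 0.16 and PDHB 0.16. Upper-quartile scaling turned PDP2 in MYO vs. Control (0.038) and PDP1 in Hyper vs. Control (0.021).

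Of the ranges left by omitting 1 library, those that crossed 0 were all of values not called. In DOX vs. Control PDP2 ran from -0.24 to 0.11 and MPC1 from -0.088 to 0.15. In MYO vs. Control PDP2 ran from -0.15 to 0.20 and MPC1 from -0.063 to 0.17. In RemoLV vs. Control PDK1 ran from -0.074 to 0.19 and PDP1 from -0.028 to 0.22. In Hyper vs. Control PDP1 ran from -0.21 to 0.16, PDP2 from -0.16 to 0.19 and MPC1 from -0.11 to 0.13. In DOX vs. MYO the ranges were -0.21 to 0.014 for PDK1, -0.10 to 0.027 for PDK3, -0.19 to 0.54 for PDK4, -0.047 to 0.073 for PDP1, -0.16 to 0.025 for PDP2, -0.067 to 0.015 for PDHA1, -0.032 to 0.039 for PDHB, -0.054 to 0.0048 for MPC1 and -0.089 to 0.028 for MPC2. In RemoLV vs. Hyper PDP1 ran from -0.047 to 0.27. In DOX and MYO vs. Hyper PDP2 ran from -0.13 to 0.092, PDHA1 from -0.19 to 0.0083, PDHB from -0.20 to 0.046 and MPC1 from -0.021 to 0.11.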
